A study of Drosophila melanogaster with 4 samples.

Results

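The genes described here are 52 *Drosophila melanogaster* genes of mitosis and chromosome segregation, taken from a list of cohesin, condensin, kinetochore, checkpoint, spindle, cytokinesis and cyclin genes. Each gene is represented by the brightest probe set that the array annotation names for it alone. Of the 52 genes, 43 had such a probe set, among 10844 genes so named on the array. The 43 were all bright enough to be tested, among 6855 genes tested. For *vtd*, *BubR1*, *Zwilch*, *polo*, *aurA*, *asp*, *pav*, *CycA* and *Cdk1* no level was analysed here.

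Signals came from whole embryos collected 3 to 5 h after egg laying and kept at 25 °C, hybridised to 4 one-colour Affymetrix arrays. The wild-type group was the yw stock, with 2 arrays. The mutant group, also with 2 arrays, came from mothers with *how* germline clones, so the embryos lacked both the maternal and the zygotic product of *how*, and a GFP balancer marked the siblings that were left out. *how* (*held out wings*) encodes an RNA-binding protein of the STAR family, and the labels used here do not name the allele. Each array was hybridised with a pool of 5 RNA preparations of about 100 embryos each, so differences between single embryos were averaged out. The groups differ in stock and in the handling of the mothers as well as in *how*, and these cannot be told apart from the loss of HOW. No probe set was named for *how* alone, so the signals give no check of the genotype. In whole embryos, fewer cells that contain a transcript and less of it per cell cannot be told apart.

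In mitosis, condensin compacts the chromosomes, cohesin holds sister chromatids together, and kinetochores attach them to spindle microtubules. The spindle checkpoint holds the anaphase-promoting complex (APC/C) inactive until attachment is complete. The APC/C then marks securin and the mitotic cyclins for destruction, which frees separase to open cohesin. The early fly embryo runs its first divisions on maternal stores of these gene products, and after the blastoderm stage its cells divide in patterned domains.

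The main comparison was between *how* mutant and wild-type embryos. Of the 43 genes, 6 fell in the mutant and 0 rose: *Map205*, *Sse*, *Cap-H2*, *Meics*, *pim* and *Bub3*. In the mutant their geometric mean signals were lower by 3.47-fold for *Map205*, 3.15-fold for *Sse*, 2.52-fold for *Cap-H2*, 2.38-fold for *Meics*, 1.96-fold for *pim* and 1.61-fold for *Bub3*. For these 6, and for no other member, the mutant arrays lay at least 1.5-fold below the nearest wild-type array, as they did for 2.71% of all tested genes. They belong to different parts of the machinery, with 2 from the separase and securin group and 1 each from condensin, the checkpoint, the spindle and the central spindle. The other 37 genes did not pass, with log2 changes between -0.58 and 0.34, and 8 of the 43 (18.6%) had an unadjusted p under 0.05, near the 16.4% of all tested genes. A gene passed where limma gave an adjusted p under 0.05 (Benjamini-Hochberg, over all 8380 probe sets tested). Of all genes tested, 3.24% passed, 1.37% as lower and 1.87% as higher, so the 14.0% of the mitosis genes that fell lies above the background, but the list was drawn up with earlier results of these data known and its count is not independent evidence.

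**Figure D1:**
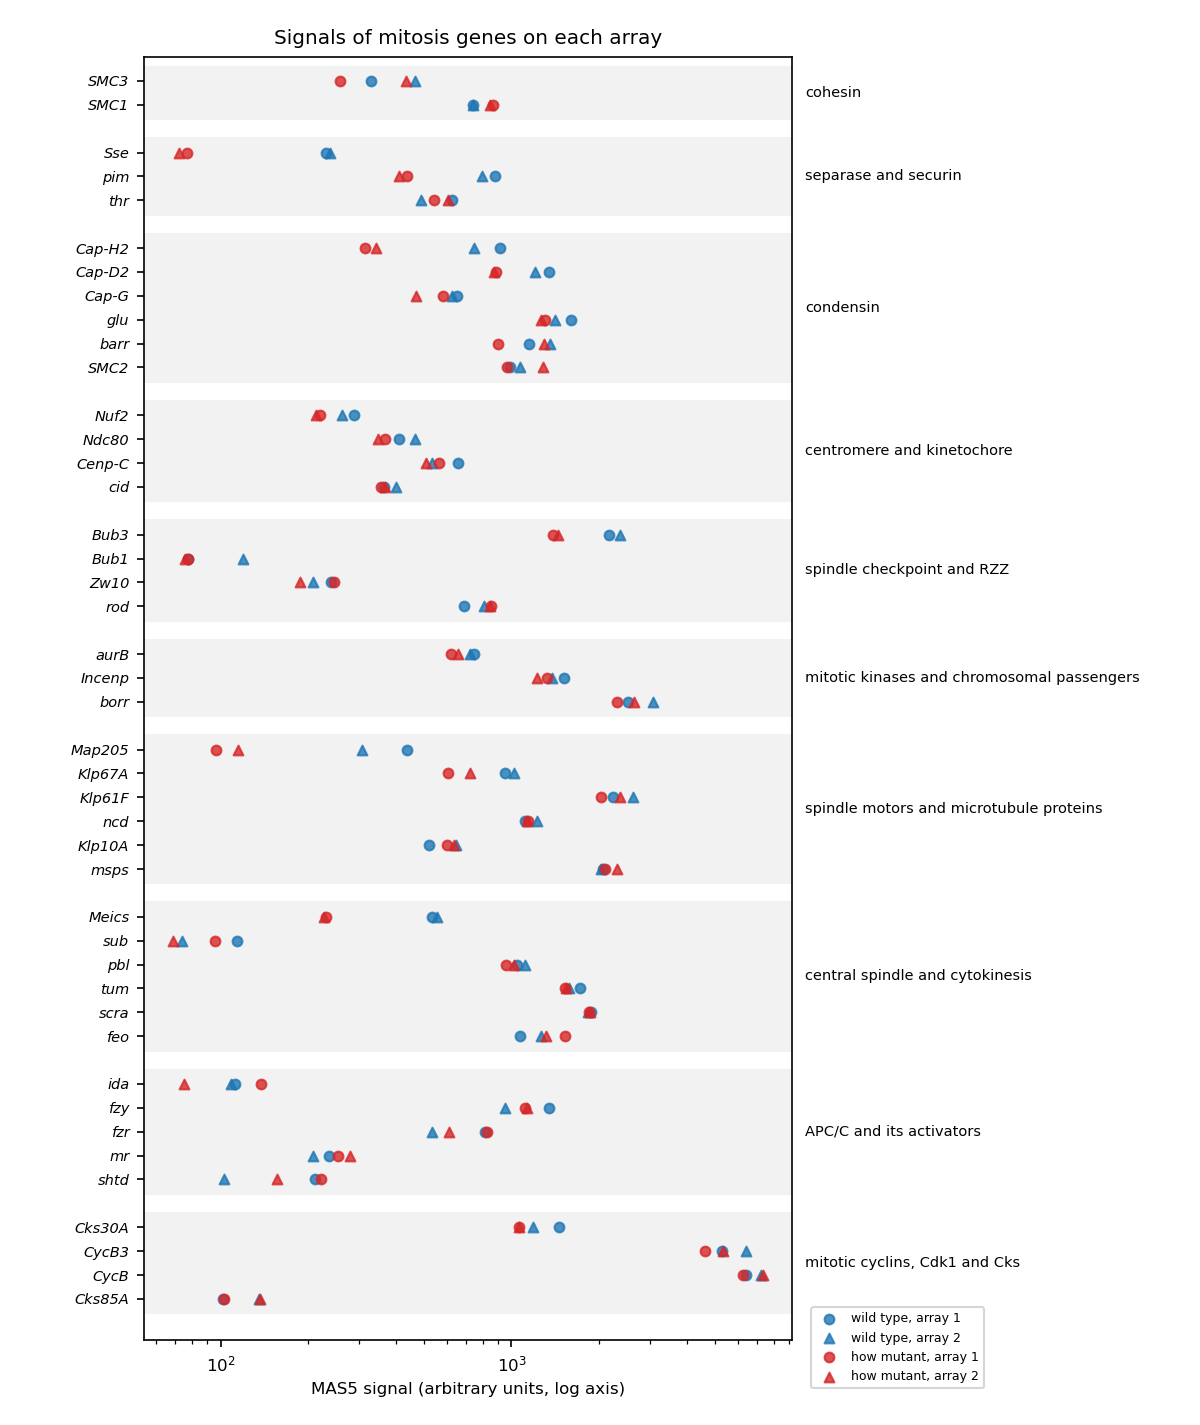
Signal of each of the 43 genes on each of the 4 arrays, on a log axis in MAS5 units, grouped by complex; blue marks wild type and red the mutant, circles array 1 and triangles array 2. For *Sse*, *pim*, *Cap-H2*, *Bub3*, *Map205* and *Meics* both red marks lie at least 1.5-fold to the left of both blue marks, and signals of different genes are not comparable with each other because each probe set responds differently.

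Securin, encoded by *pim*, and separase, encoded by *Sse* together with its partner subunit *thr*, control the loss of cohesion at anaphase. *Sse* (CG10583) had signals of 230.0 and 237 in wild type against 76.7 and 71.8 in the mutant. The nearest arrays of the groups lay 3.00-fold apart, and the replicate arrays within 1.07-fold of each other. Its log2 change was -1.65 ± 0.23 (SE; limma adjusted p = 0.00955). *pim* (CG5052) gave 875 and 789 in wild type against 436 and 412 in the mutant, again with no overlap. Its log2 change was -0.97 ± 0.15 (SE; limma adjusted p = 0.0134). *thr*, whose product forms the active protease together with the *Sse* product, showed no such separation. Its signals were 626 and 489 in wild type against 541 and 606 in the mutant, so the groups overlapped. The log2 change of *thr* was 0.05 with a 95% interval of -0.35 to 0.45. That interval does not reach the changes of *Sse* and *pim*, although the differences between genes were not tested. The call for *Sse* was lost with no filter on dim probe sets, without either wild-type array and without mutant array 2. That for *pim* was lost with no filter, without the mean-variance trend, without wild-type array 1 and without either mutant array. Over the settings tried the log2 changes stayed between -1.70 and -1.19 for *Sse* and between -1.05 and -0.90 for *pim*.

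Cohesin itself was represented by both of its SMC subunits, the ATPase arms of the ring. *SMC3* had the larger change of the pair, with signals of 329 and 466 in wild type against 258 and 433 in the mutant. The arrays of the groups interleaved, and on both genotypes array 1 was lower than array 2. The log2 change was -0.23 ± 0.28 (SE; limma adjusted p = 0.762). For *SMC1* the wild-type signals were 739 and 737 and the mutant signals 863 and 847. The mutant arrays lay above the wild-type arrays by 1.15-fold at the nearest, and the log2 change of 0.21 did not pass (limma adjusted p = 0.504).

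Among the 6 condensin genes 1 fell. *Cap-H2* (CG14685) encodes the kleisin subunit of condensin II, the form of the complex known in flies for shaping interphase chromosomes. Its signals were 913 and 744 in wild type against 313 and 343 in the mutant. The nearest arrays were 2.17-fold apart, and the log2 change was -1.33 ± 0.17 (SE; limma adjusted p = 0.0058). A second, dimmer probe set of *Cap-H2* gave 267 and 233 in wild type against 153 and 139 in the mutant. The groups were apart there too, with a smaller log2 change of -0.77 ± 0.20 (SE) that did not pass (limma adjusted p = 0.107).

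The other genes of this group, of condensin I or shared by both forms, were closer to wild type. *Cap-D2*, which encodes a HEAT-repeat subunit, had signals of 1351 and 1209 in wild type against 885 and 872 in the mutant. Its arrays did not overlap, and its log2 change of -0.54 ± 0.14 (SE) did not pass (limma adjusted p = 0.0982). For *Cap-G*, the other HEAT-repeat gene, the log2 change was -0.29, and its second probe set gave -0.41; neither passed. *barr*, the condensin I kleisin gene, had a log2 change of -0.21, and *glu*, which encodes one SMC subunit, had -0.23. *SMC2*, the partner of *glu*, was at 0.12, with mutant signals of 967 and 1287 on either side of both wild-type signals, 987 and 1068. Over the 6 genes the median was -0.26.

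None of the 4 centromere and kinetochore genes passed, and all 4 had log2 changes below 0. *Nuf2*, a subunit of the microtubule-binding Ndc80 complex, had the largest change, with signals of 288 and 262 in wild type against 219 and 213 in the mutant. The groups did not overlap, but the nearest arrays were 1.20-fold apart and the log2 change was -0.35 ± 0.18 (SE; limma adjusted p = 0.402). Its partner *Ndc80* showed a log2 change of -0.29, also with no overlap between the groups. *cid*, which encodes the centromeric histone, was at -0.08, and *Cenp-C*, the inner kinetochore scaffold gene, at -0.15. The other probe sets of *Cenp-C* gave -0.28 and 0.01.

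In the spindle checkpoint 1 of 4 genes fell. *Bub3* (CG7581) encodes the WD-repeat protein that brings the Bub kinases to kinetochores. Its signals were 2171 and 2368.5 in wild type against 1383 and 1441 in the mutant. The nearest arrays were 1.51-fold apart, the smallest gap among the 6 genes that fell, and the log2 change was -0.68 ± 0.14 (SE; limma adjusted p = 0.0401). The *Bub3* call was lost under median centring, with no filter, without the mean-variance trend and when any 1 array was left out. Its log2 change stayed between -0.75 and -0.62 over the settings tried. *Bub1*, one of those kinases, was dim, with signals of 77.2 and 120 in wild type against 77.5 and 75.4 in the mutant. Only wild-type array 2 stood above the others, and the log2 change was -0.33 ± 0.33 (SE). The products of *rod* and *Zw10* act in the complex that brings dynein to kinetochores, and their log2 changes were 0.19 and -0.05.

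The chromosomal passenger complex corrects faulty attachments and later marks the division plane. Its kinase gene *aurB* had signals of 743 and 721 in wild type against 621 and 654 in the mutant. The groups were apart by 1.10-fold at the nearest, with a log2 change of -0.20 ± 0.14 (SE; limma adjusted p = 0.544). The scaffold gene *Incenp* and the borealin gene *borr* had log2 changes of -0.18 and -0.17. None of the 3 genes passed, and their intervals reached from -0.54 to 0.20. A dim second probe set of *borr* gave -0.05.

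Of 6 genes for spindle motors and microtubule proteins 1 fell. *Map205* (CG1483) encodes a microtubule-associated protein known to bind Polo kinase and hold it on microtubules. Its signals were 437 and 306 in wild type against 96.4 and 115 in the mutant. The wild-type arrays differed from each other by 1.43-fold, and the nearest arrays of the groups by 2.66-fold. The log2 change of -1.80 ± 0.24 (SE; limma adjusted p = 0.00815) was the lowest of the 43 genes and the 59th lowest of the 6855 genes tested.

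*Klp67A* encodes a kinesin that shortens kinetochore microtubules, and its signals were 948 and 1018 in wild type against 604 and 719 in the mutant. The groups did not overlap, and the log2 change of -0.58 ± 0.15 (SE) did not pass (limma adjusted p = 0.105). The other motor genes had smaller changes and did not pass. *Klp61F*, the gene for the motor that pushes spindle poles apart, had a log2 change of -0.15, *ncd*, the gene for a minus-end-directed motor, had -0.04, and *Klp10A*, the gene for a microtubule-depolymerising kinesin, had 0.09. *msps*, which encodes a microtubule polymerase, had 0.10, with wild-type signals of 2058 and 2031 and mutant signals of 2101 and 2298. For *msps* the 95% interval was -0.21 to 0.42.

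Among 6 genes of the central spindle and cytokinesis 1 fell. *Meics* (CG8474) encodes a zinc finger protein first described on the central spindle of male meiosis. Its signals were 533 and 555 in wild type against 229.6 and 227 in the mutant, and the replicate arrays were within 1.04-fold of each other. The nearest arrays were 2.32-fold apart, and the log2 change was -1.25 ± 0.16 (SE; limma adjusted p = 0.00613). The call for *Meics* was lost with no filter on dim probe sets, without the mean-variance trend and without mutant array 2.

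The other 5 cytokinesis genes did not pass. *scra*, which encodes anillin, the scaffold of the contractile ring, had 1881 and 1839 in wild type against 1845 and 1855 in the mutant. Its log2 change was -0.01 (95% interval -0.31 to 0.30), and its sign turned under quantile normalization. The products of *tum* and *pbl* help to place the ring, and the log2 changes of these genes were -0.10 and -0.13. *feo*, whose product bundles the antiparallel microtubules of the central spindle, was higher on both mutant arrays, at 1522 and 1318 against 1067 and 1267. Its log2 change of 0.28 ± 0.15 (SE) did not pass (limma adjusted p = 0.417). *sub*, a central spindle kinesin gene, was dim, and its replicate arrays were 1.55-fold apart in wild type and 1.39-fold in the mutant against a group difference of 1.13-fold.

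None of the 5 genes of the APC/C and its activators passed. The activator gene *fzy*, which acts at the start of anaphase, had signals of 1345 and 952 in wild type against 1112 and 1133 in the mutant, with the mutant arrays between the wild-type arrays. *fzr*, the activator gene for mitotic exit and the following interphase, had 814 and 531 in wild type against 826 and 608 in the mutant. On both genotypes array 1 of *fzr* was brighter than array 2, and its log2 change was 0.11. The subunit gene *shtd* had the largest change of the group, 0.34 ± 0.36 (SE; limma adjusted p = 0.715), from signals of 211 and 103 in wild type against 222 and 157 in the mutant. The 2.05-fold gap between its wild-type arrays exceeded the 1.27-fold difference between the groups. The subunit genes *mr* and *ida* had log2 changes of 0.26 and -0.12, and the mutant arrays of *ida* differed from each other by 1.85-fold. The median of the 5 genes was 0.11.

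The B-type cyclin genes, whose products are the substrates the APC/C removes at mitotic exit, did not differ beyond the replicate spread. *CycB* had signals of 6414 and 7221 in wild type against 6258 and 7292 in the mutant. The arrays paired by number rather than by genotype, and the log2 change was -0.01 (95% interval -0.39 to 0.37), with its sign turned under quantile normalization. *CycB3* had 5278 and 6406 in wild type against 4617 and 5338 in the mutant, a log2 change of -0.23 (95% interval -0.62 to 0.16). The Cks proteins are small partners of the cyclin-dependent kinases. *Cks30A*, the one known for female meiosis and the early embryo, had 1460 and 1184 in wild type against 1062 and 1063 in the mutant. The groups did not overlap, and the log2 change of -0.31 ± 0.15 (SE) did not pass (limma adjusted p = 0.375). *Cks85A* had 102 and 135 in wild type against 103 and 137 in the mutant, with a log2 change of 0.01 whose sign turned under quantile normalization and median centring.

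**Figure D2:**
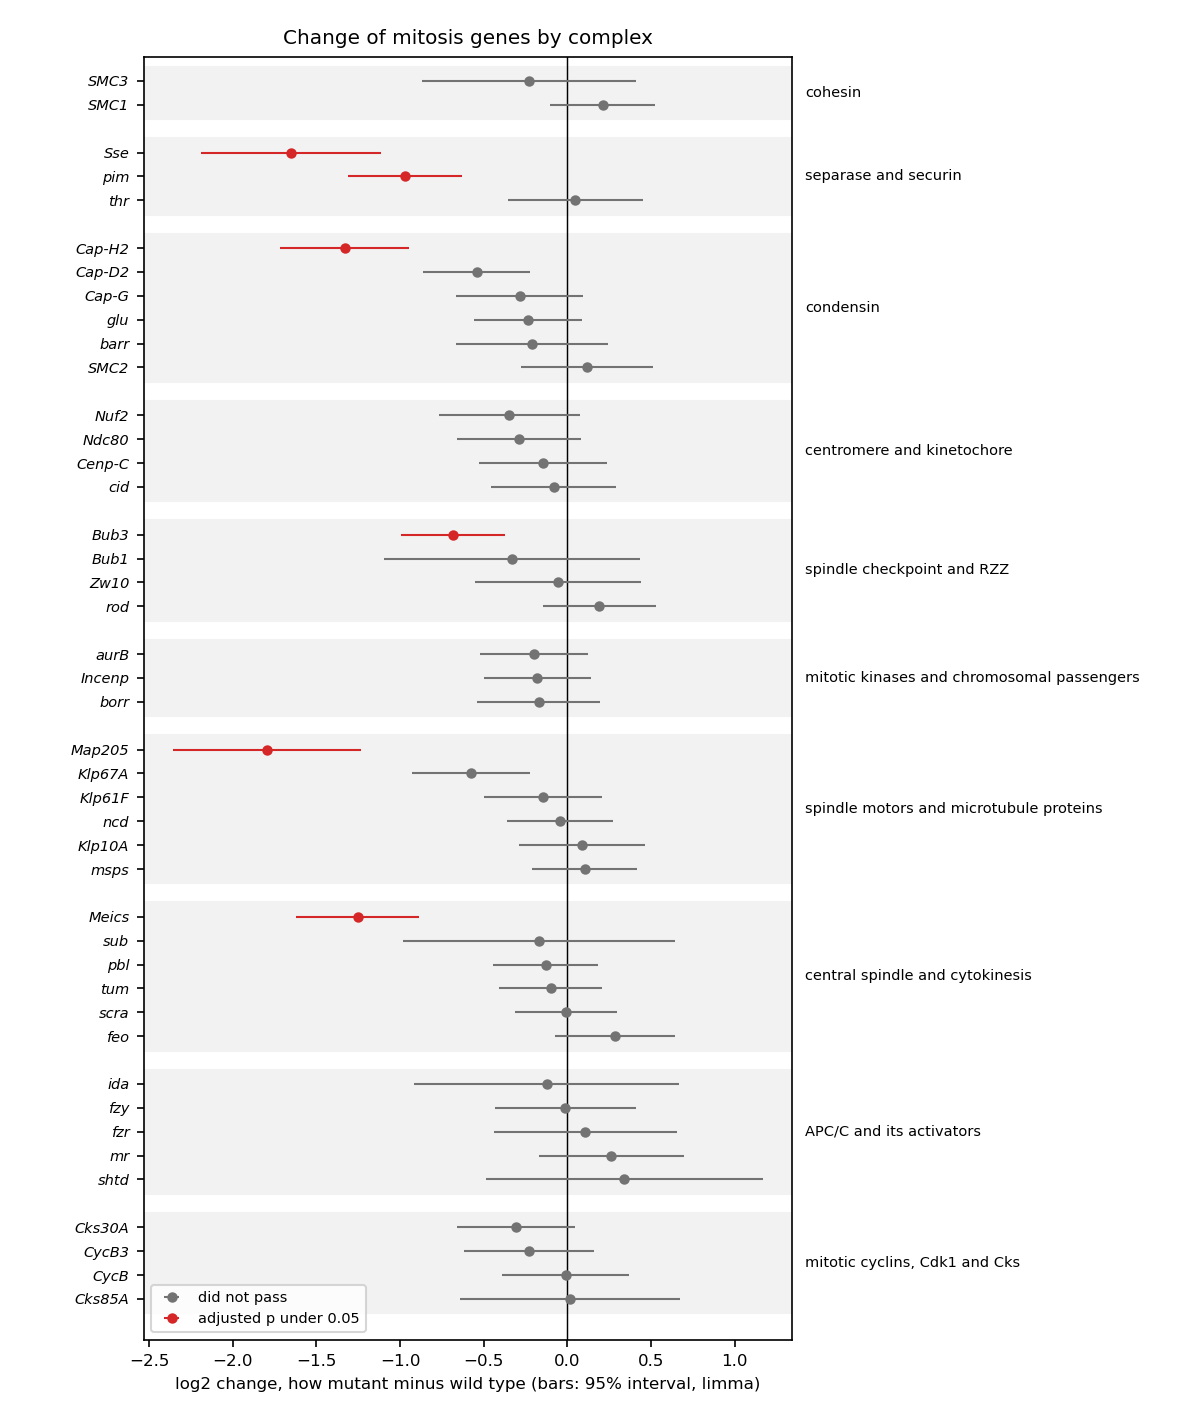
Log2 change of each of the 43 genes, mutant minus wild type, grouped by complex, with 95% intervals from limma on 2 arrays a group; red marks the 6 genes with an adjusted p under 0.05 and grey the other 37. The red points lie between -1.80 and -0.68, and the grey points reach down to -0.58. Each red point is the only one of its group, except that *Sse* and *pim* share one.

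Over the 43 genes the median log2 change was -0.15, and 32 lay below 0 (74.4%), where 49.7% of all tested genes lay below 0 and the median of all tested genes was 0.00. Without the 6 genes that fell the median was -0.12, and 26 of 37 lay below 0. The groups did not overlap for 22 genes (51.2%, against 47.8% of all tested genes). For 17 of these the mutant arrays were the lower ones (39.5%, against 23.4% of all tested genes), and for 5 the higher ones (11.6%, against 24.4%). For 25 of the 43 genes the replicate arrays of a group lay farther apart than the group means did. The share over all tested genes is not given for this count or the next, so neither marks a trait of these genes. The replicates were over 1.5-fold apart for 6 genes, *SMC3*, *Bub1*, *sub*, *fzr*, *ida* and *shtd*, none of which passed. With 2 arrays a group, an exact permutation test of 1 gene cannot give a two-sided p below 0.333, so the calls rest on limma's sharing of the spread across probe sets. On a table with no filter on dim probe sets none of the 6 genes passed (limma, smallest adjusted p among the 43 genes 0.11, with 9 of them at an unadjusted p under 0.05), and without the mean-variance trend only *Sse* did.

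**Figure D3:**
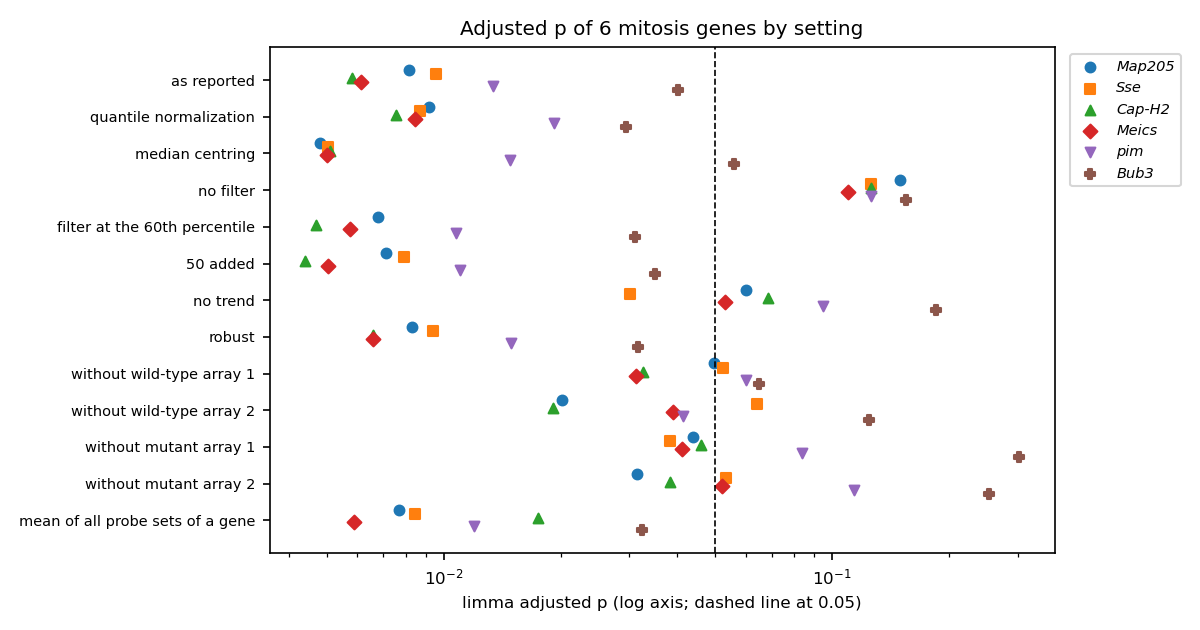
Adjusted p of the 6 genes that fell, on a log axis, as reported and under 12 other settings, one row each, with the threshold of 0.05 dashed; *Sse* has no value with the filter at the 60th percentile, which left it out. *Cap-H2* and *Map205* lie left of the line in all rows but those with no filter and no trend, and *Bub3* lies right of it in 7 rows.

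DNA replication genes, which like the mitosis genes serve dividing cells, were set beside them. Of 35 tested, none passed (limma; 7 at an unadjusted p under 0.05), and their median log2 change was -0.16, next to -0.15 for the mitosis genes. Of the replication genes 24 lay below 0 (68.6%), and the lowest was *Prim2*, a primase subunit gene, at -0.59. Both mutant arrays lay below both wild-type arrays for 19 replication genes (54.3%), against 39.5% of the mitosis genes and 23.4% of all tested genes. The lists were close in median, and the mitosis list reached lower, to -1.80. Its members were chosen with earlier results of these data known, so this lower reach is not independent evidence.

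**Figure D4:**
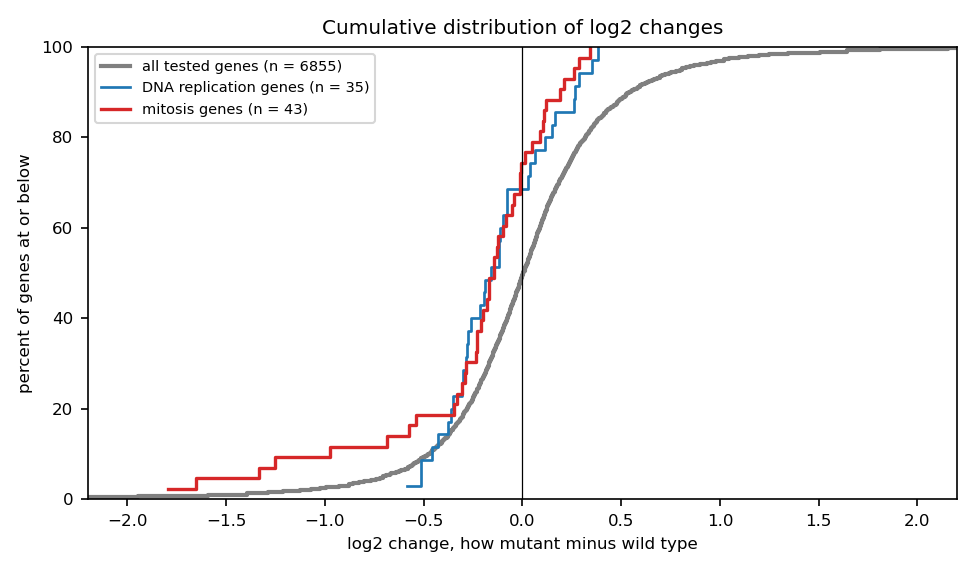
Percent of genes at or below each log2 change (mutant minus wild type) for all 6855 tested genes in grey, 43 mitosis genes in red and 35 DNA replication genes in blue. The mitosis genes were chosen with earlier results of these data known. The red and blue curves run together left of the grey one around 0, and the blue one ends at -0.59 while the red one goes on down to -1.80, through the 6 genes that fell; the horizontal axis leaves out the largest changes of the grey curve.

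Other genes of the same machinery, 63 tested in 5 lists, had a median log2 change of 0.00, and 1 rose and 0 fell. All lists were drawn up with earlier results known, so the contrast with the members is not independent evidence. The one that rose was *dgt3*, which encodes a subunit of the augmin complex that nucleates microtubules within the spindle. Its signals were 203 and 229 in wild type against 391 and 385 in the mutant, a log2 change of 0.85 ± 0.17 (SE; limma adjusted p = 0.0464). It was 1 of 19 tested spindle and centrosome genes, of which 12 lay below 0. In the same list *SAK*, the centriole duplication kinase gene, named after its values were seen, had signals of 1921 and 2034 in wild type against 1248 and 1330.1 in the mutant, with no overlap. Its log2 change of -0.62 ± 0.13 (SE) did not pass (limma adjusted p = 0.0572). The *dgt3* call did not hold when any 1 array was left out (adjusted p up to 0.242), with no filter or no trend, or after either rescaling of the arrays, by quantiles or by medians. None of 19 tested regulators of the APC/C and of cyclin-dependent kinases passed. The smallest p among them belonged to *gwl*, the gene for the Greatwall kinase that restrains a mitotic phosphatase, at -0.64 (limma adjusted p = 0.0579), and *Cdk4*, a growth-linked kinase gene, at -0.73 (limma adjusted p = 0.0689). For *gwl* the signals were 843 and 807 in wild type against 534 and 524 in the mutant, with no overlap.

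None of 11 other kinetochore and checkpoint genes passed, with *Nnf1a*, a kinetochore subunit gene, at 0.46 and *mad2*, a checkpoint gene, at -0.36. Likewise none of 8 other cohesin and condensin factors passed, where *mei-S332*, the shugoshin gene that guards centromeric cohesion, was at -0.28 and *pds5*, a cohesin regulator gene, at -0.25. These were the only 2 of the 8 below 0, and the list had a median of 0.04. *Cap-D3*, a condensin II subunit gene like *Cap-H2*, was in this list and was not below 0. The 6 other cytokinesis genes did not pass either, with the formin gene *dia* at -0.38 and *Septin2* at 0.20. At an unadjusted p under 0.05 there were 9 of the 63 genes, against 16.4% of all tested genes.

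Among lists of markers of embryo age and of other cell types, some held genes that passed and others held none. Of 12 tested genes of late differentiation, muscle and cuticle 10 fell and 0 rose, with a median log2 change of -3.28. Of all tested genes 1.37% fell and 1.87% rose. *Osi6*, *Osi14*, *Mlc1*, *up*, *TwdlN* and *Cpr65Ea* were under the filter signal of 39.5 on both mutant arrays. They passed the filter only through wild type, so this count and median lean towards genes bright in wild type. The summed signal of the 15 measured was 5680.0 to 5706 in wild type and 816 to 845 in the mutant. In 10 measured pole cell and germline genes the sum was 1141 to 1217 in wild type and 1947 to 1951 in the mutant, and of 5 tested 2 rose, *aub* and *pgc*. Of 4 tested maternal transcripts that are cleared early 1 rose, *dhd* (1.72), with sums over 8 genes of 2319 to 2594 and 2716 to 2882. None of 10 neural precursor genes (sums of 8739 to 9072 and 7930 to 8620), 8 cellular blastoderm genes (10 measured, 2964 to 3165 and 2291 to 2715) or 9 amnioserosa and dorsal ectoderm genes (10 measured, 6770 to 7673 and 6409 to 6690) passed in limma, with 2, 1 and 2 of them at an unadjusted p under 0.05. No marker was at or under the floor of 3.38 on every array, but that floor lies far under the filter signal. *pgc* was under the filter signal on both wild-type arrays, at 35.7 and 36.8. It passed the filter only through the mutant, so the germline count leans towards genes bright in the mutant. The part of embryo age and of cell makeup in the falls of the mitosis genes was not tested.

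By chromosome arm, in the Release 6 plus ISO1 MT gene table, 11 of the 43 genes lie on 3R, the arm of *how*, which is 25.6% against 24.4% of all tested genes. Of the 6 genes that fell, *Cap-H2*, *Bub3* and *Map205* lie on 3R, *Sse* and *Meics* on 3L and *pim* on 2L. Of all tested genes 19.5% lie on 3L and 17.8% on 2L. The share of passing genes by arm is not given, so these places mark no trait of the 6 genes.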

How the data were processed

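The deposited table holds 1 intensity per probe set and array, a MAS5 signal per the submitters' processing notes, on a linear scale. The MAS5 version is not given in the sources used here. Each array had already been scaled, with a mean of 250.04 once 2% was trimmed at either end. Signals were floored at the 5th percentile of gene probe sets (3.38) and log2 was taken. Probe sets under the 40th percentile of mean log2 signal (39.5) and 44 control probe sets were left out, which kept 8380 of 13966. These were fitted with limma 3.58.1 in R 4.3.3 (eBayes with trend, 2 residual degrees of freedom), group as the only term.

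Names came from the platform annotation, updated by Entrez ID: 12443 probe sets had 1 symbol (12394 matched to the RefSeq table), 327 several and 1196 none. The fit was tested on simulated data. The precision is limited by the number of arrays. Members, gene lists and the rule for named genes (those passing, those apart by 1.5-fold, the largest change in each complex, and in other lists those passing or the 2 with the smallest p) were chosen with earlier results of these data known. Other members were named beside them by complex. The labels speak of independent samples, though not of separate parents, so p-values measure only the spread between these pools.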

Additional observations from a re-analysis of the deposited data

How the results depend on the processing

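The 6 mitosis genes that passed kept their direction under all settings tried. The count was 6 with quantile normalization, 50 added, a robust fit and the mean of all probe sets of a gene, 5 with median centring and with the filter at the 60th percentile, 8 with the replicate block, 1 without the trend and 0 with no filter (limma, 9 at an unadjusted p under 0.05), where 255 probe sets changed became 0 of 13966 (1782 unadjusted). Leaving out 1 array gave 2 to 4: 3 or 4 when wild-type array 1 or 2 was dropped, and 4 or 2 when mutant array 1 or 2 was dropped; a single remaining array was then given the spread of the other group. The count over all probe sets, 255, was 825 with the block, 95 without the trend and 87 to 153 without an array. Genes with groups apart, 22, numbered 30 to 36 once an array was left out, since separation is then easier, and the median of -0.15 ranged from -0.16 to -0.11. For the other moves the cause was not tested.

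Signs turned only for genes that did not pass: *scra* (0.021), *CycB* (0.0060) and *Cks85A* (-0.014) with quantile normalization, *Cks85A* (-0.0011) with median centring, and 16 genes on leaving out an array. Their ranges were *SMC3* -0.60 to 0.15, *thr* -0.13 to 0.23, *SMC2* -0.086 to 0.33, *barr* -0.47 to 0.048, *Cenp-C* -0.29 to 0.0017, *Zw10* -0.24 to 0.13, *Klp10A* -0.065 to 0.24, *ncd* -0.12 to 0.027, *sub* -0.48 to 0.14, *scra* -0.024 to 0.0087, *fzy* -0.26 to 0.24, *fzr* -0.20 to 0.42, *ida* -0.57 to 0.32, *shtd* -0.18 to 0.86, *CycB* -0.12 to 0.10 and *Cks85A* -0.19 to 0.22.

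The replicate block added *Cap-D2* (limma adjusted p = 0.00667) and *Klp67A* (0.00606) to the calls, which passed under no other setting. With it 4 of 35 replication genes were called lower, *Prim2* (limma adjusted p = 0.0249) and *Mcm6* (0.03) among them. Of the 63 other machinery genes 3 were called higher, with *Nnf1a* (0.0386), and 3 lower, *SAK* (0.00137), *gwl* (0.00356) and *Cdk4* (0.00457). Of all 6855 tested genes the block called 297 lower and 383 higher, so the counts among the 63 lie near the background. The labels do not tie a number to a shared batch; same-numbered arrays deviated from their group means with a correlation of 0.183.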
